A study of Homo sapiens with 9 samples.

Results

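Pleiotrophin (PTN), midkine (MDK) and genes of their receptors were followed in U87, an established cell line from a human glioma, on 9 Affymetrix expression arrays. The 6 genes (PTN, MDK, PTPRZ1, PTPRG, SDC3 and LRP1) were chosen by gene name, with earlier results of these same arrays in view. PTPRG was included as the receptor phosphatase most closely related to PTPRZ1. All probe sets annotated with exactly 1 gene symbol, equal to one of these names, were taken. They numbered 16 of the 54613 probe sets that are not array controls, and the 6 genes are among 19775 symbols on the array. The differences between groups were known when the genes were chosen. Every difference given below for these 6 genes is therefore a description of these arrays, with no p-value, and supports nothing beyond them. Where such a difference is said to pass an adjusted threshold, that too is a description and not a test. The samples form 3 groups of 3 biological replicates: cells given miR-376a*A, cells given miR-376a*G and cells given a control miRNA. Each duplex was transfected at 50 nM with a lipid reagent into 100000 cells, and RNA was taken after 24 h. The duplexes were transient and all groups share the same line, so the results describe 1 tumour cell line in culture. No untransfected cells were analysed here, so a level that is high with both miR-376a* forms and a level that is low with the control miRNA cannot be told apart.

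Pleiotrophin and midkine are secreted, heparin-binding growth factors that together make up a small family, and they are active in the developing nervous system and in tumours. PTPRZ1 is a receptor tyrosine phosphatase that carries chondroitin sulfate chains, and binding of pleiotrophin lowers its phosphatase activity. Syndecan-3 (SDC3) is a heparan sulfate proteoglycan that binds pleiotrophin on neurons, and LRP1 is a large endocytic receptor that binds midkine among many other ligands. PTPRG shares with PTPRZ1 an extracellular carbonic anhydrase-like domain and binds contactins, and it is not an established pleiotrophin receptor. In gliomas pleiotrophin and PTPRZ1 have been described as drivers of growth and migration.

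The transfected miRNA is a 5p-arm product of the miR-376a genes, and published work describes A-to-I editing of this arm within the seed, the stretch that pairs with target transcripts. The reference sequences are shown because the A and G forms differ in the seed and the groups differ in nothing else that the labels state. Seeds (bases 2 to 8) are in capitals, both genes lie on the plus strand of GRCh38.p14, and the sequences are those of RefSeq. The first maps to chr14:101040788-101040809 and the second to chr14:101040080-101040100. The labels do not say which of these sequences the duplexes carried, and the edited form is not printed here.
hsa-miR-376a-5p (MIR376A1): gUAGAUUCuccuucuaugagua
hsa-miR-376a-2-5p (MIR376A2): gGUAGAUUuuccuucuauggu

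The arrays were already scaled to one another, with a 2% trimmed mean signal of 100.01 on each. Their precision is limited by the number of replicates. The spread around the group mean was widest on control replicates 1 and 2, at an SD of 0.164 and 0.145 (log2), against 0.102 to 0.114 on the miR-376a* arrays. Of the glial and mesenchymal markers, VIM (2009 to 2611) and CD44 (1821 to 2199) were bright on all arrays and NES lay at 63.9 to 105. SOX2 lay at 14.4 to 26.1, whereas the astrocyte markers GFAP (0.73 to 2.43) and S100B (0.52 to 1.67) were near 0. Among markers of other cells, PTPRC, EPCAM, CDH1 and RBFOX3 were at 20.5 or below, MBP at 20.3 to 33.2 and the endothelial gene PECAM1 at 41.3 to 87.3. Differences are given on the log2(signal + 16) scale, which understates changes of dim probe sets, and probe sets with a mean of at least 4.771 on that scale (a signal of 11.3) were kept for fitting. Bulk signals cannot tell fewer expressing cells from less RNA per cell.

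PTN was higher with either form of miR-376a* than with the control miRNA, 2.84-fold with the A form and 2.90-fold with the G form on the log2(signal + 16) scale. On its brightest probe set (211737_x_at) the signals were 1317, 1405 and 1385 with miR-376a*A, 1524, 1429 and 1256 with miR-376a*G, and 389, 565 and 477 with the control miRNA. All 6 miR-376a* arrays lay above the 3 control arrays, and the arrays of the A and G forms overlapped. Means were 1369 ± 46.1 with miR-376a*A, 1403 ± 136 with miR-376a*G and 477 ± 88.2 with the control (SD, n = 3 each). The difference was 1.50 ± 0.111 (log2, SE) for miR-376a*A minus control and 1.54 ± 0.111 for miR-376a*G minus control. These comparisons share the 3 control arrays. Among the 13697 genes with a single symbol that were tested, PTN had the 23rd largest rise with miR-376a*A and the 26th largest with miR-376a*G. Between the forms the difference was -0.03 ± 0.111 (miR-376a*A minus miR-376a*G).

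**Figure D1:**
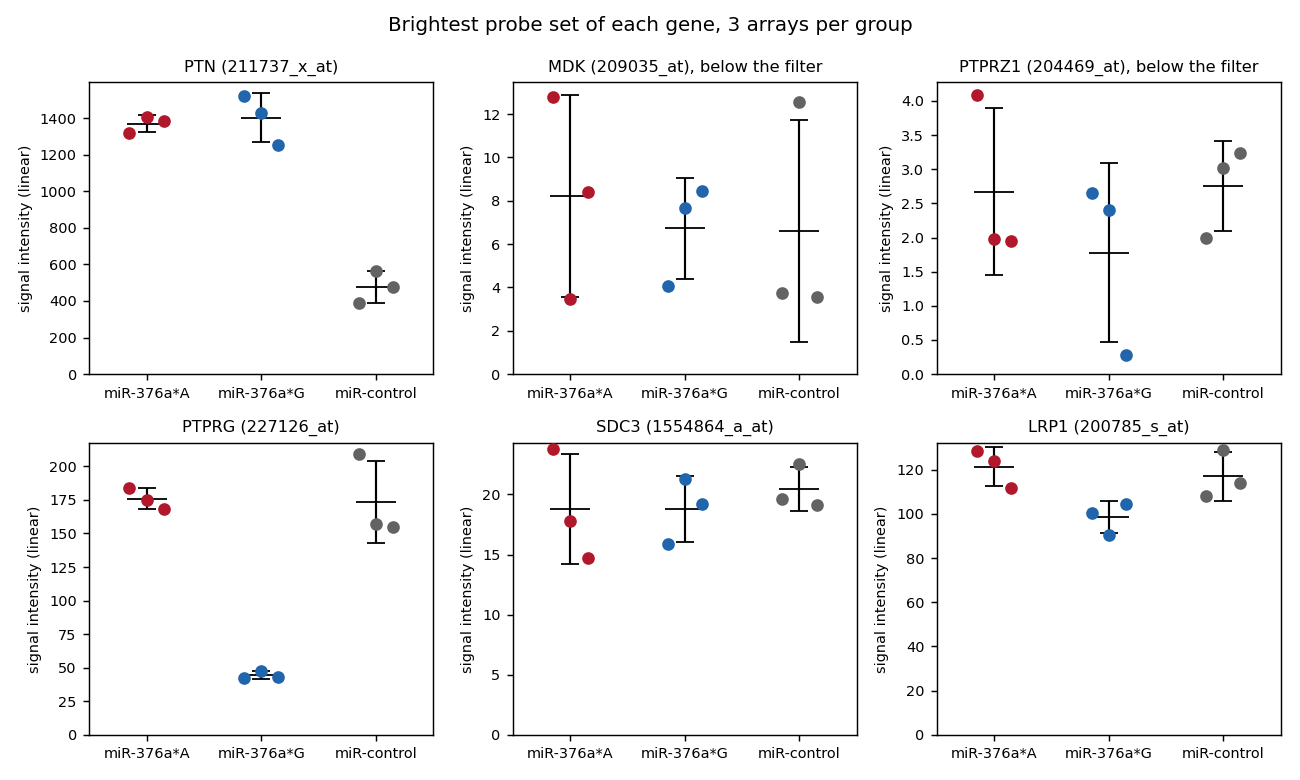
Linear signal intensity (y axis) of the brightest probe set of each of the 6 genes, with 1 point per array and bars for mean ± SD of 3 arrays, for miR-376a*A, miR-376a*G and miR-control (x axis). PTN stands at 1256 to 1524 on the miR-376a* arrays and at 389 to 565 on the control arrays, while PTPRG stands at 42.3 to 47.8 with miR-376a*G only.

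The other bright PTN probe sets repeated this order. Probe set 209466_x_at had 1018, 1052 and 1060 with miR-376a*A, 1075, 1066 and 1008 with miR-376a*G, and 310, 446 and 440 with the control. Probe set 209465_x_at had 341, 330 and 333 with miR-376a*A, 316, 374 and 327 with miR-376a*G, and 117, 130 and 132 with the control. In both, the miR-376a* arrays lay above every control array. Control replicate 1 was the lowest array on each of these 3 probe sets, and it is also the array with the widest spread over all features. Without it the differences on the brightest probe set were 1.37 with miR-376a*A and 1.401 with miR-376a*G. These were the lowest values when each array was removed in turn, and the highest were 1.63 with the A form and 1.66 with the G form. The suffix x marks probe sets whose probes may also match other transcripts, so the 3 are not independent readings. The remaining PTN probe set, without that suffix (208408_at), was just above the limit for fitting, with a mean of 4.80. Its signals were 24.8, 4.91 and 15.1 with miR-376a*A, 10.6, 10.6 and 14.9 with miR-376a*G, and 11.9, 4.51 and 14.9 with the control, so all groups overlapped. Its difference was 0.20 ± 0.211 with miR-376a*A and 0.10 ± 0.211 with miR-376a*G, each minus control.

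**Figure D2:**
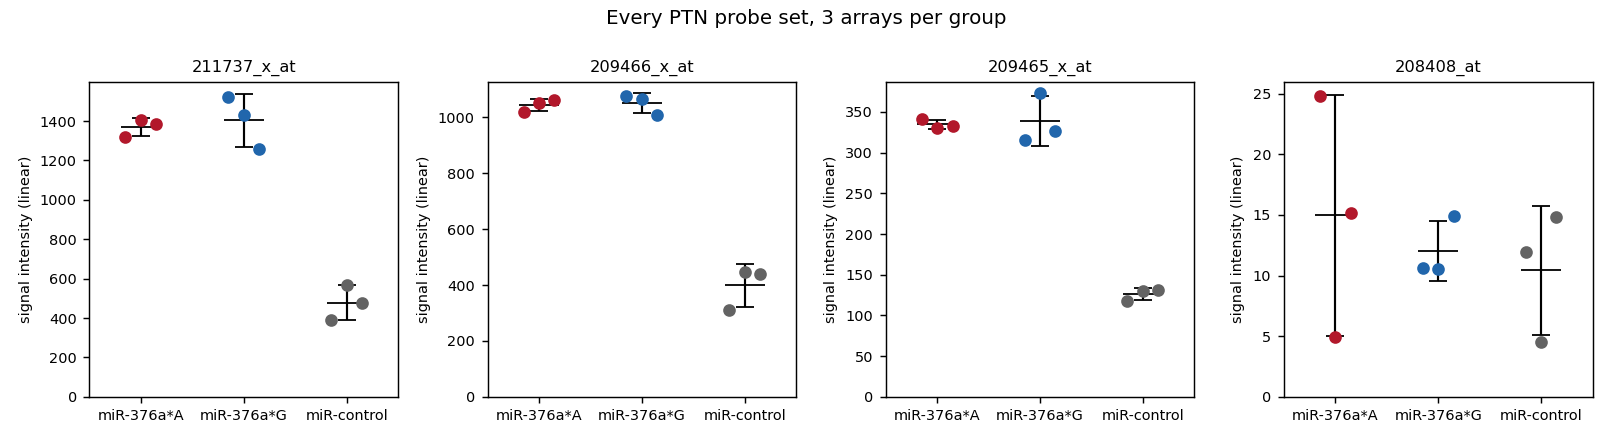
Linear signal intensity (y axis) of the 4 PTN probe sets, with 1 point per array and bars for mean ± SD of 3 arrays per group (x axis). In the 3 bright probe sets the miR-376a* arrays lie above all control arrays, whereas in 208408_at, at 4.51 to 24.8, the groups overlap.

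MDK, the other ligand, gave a dim signal. Its only probe set (209035_at) had 12.8, 3.45 and 8.40 with miR-376a*A, 4.07, 7.68 and 8.44 with miR-376a*G, and 3.74, 12.5 and 3.57 with the control. No group stood apart, and arrays of one group differed about as much as arrays of different groups. Its mean of 4.52 on the log2(signal + 16) scale was below the limit of 4.771, so MDK was not fitted.

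PTPRZ1, the receptor phosphatase that pleiotrophin inhibits, was dimmer still on its only probe set (204469_at). Its signals were 4.08, 1.98 and 1.95 with miR-376a*A, 2.65, 2.41 and 0.28 with miR-376a*G, and 2.00, 3.02 and 3.23 with the control. The groups overlapped and the gene was not fitted. A signal this low gives no reading of whether the transcript differed between the groups.

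PTPRG was lower with miR-376a*G than in both other groups. Its brightest probe set (227126_at) had 184, 175 and 168 with miR-376a*A, 42.3, 47.8 and 43.2 with miR-376a*G, and 209, 157 and 155 with the control. The 3 miR-376a*G arrays lay below all the others, and the miR-376a*A arrays lay within the range of the control arrays. Means were 176 ± 7.93 with miR-376a*A, 44.4 ± 2.92 with miR-376a*G and 174 ± 30.6 with the control (SD, n = 3 each). On the log2(signal + 16) scale the difference was -1.64 ± 0.104 (SE) for miR-376a*G minus control, or 3.12-fold lower, the 15th largest fall among the 13697 genes. It was 0.03 ± 0.104 for miR-376a*A minus control and 1.67 ± 0.104 for miR-376a*A minus miR-376a*G. PTPRG had the 9th largest excess with miR-376a*A over miR-376a*G among those genes. Removal of each array in turn left the fall with miR-376a*G at -1.71 to -1.51.

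The other PTPRG probe sets varied in size and, in one case, in sign. Probe set 244574_at had 59.9, 64.4 and 48.9 with miR-376a*A, 33.4, 9.82 and 27.4 with miR-376a*G, and 54.6, 55.2 and 52.2 with the control. Its miR-376a*G arrays were again the lowest, at -0.88 ± 0.186 against the control. Probe set 204944_at had 43.5, 42.1 and 43.5 with miR-376a*A, 34.9, 29.4 and 36.1 with miR-376a*G, and 71.4, 47.3 and 53.9 with the control. Here no 2 groups overlapped, miR-376a*G being lowest and the control highest, with -0.30 ± 0.115 with miR-376a*A and -0.56 ± 0.115 with miR-376a*G, each minus control. The dimmest probe set (1569323_at) had 12.2, 19.4 and 16.2 with miR-376a*A, 18.6, 15.9 and 15.02 with miR-376a*G, and 12.4, 12.5 and 11.1 with the control. It went the other way with miR-376a*G, at 0.21 ± 0.108. With every kept probe set tested on its own, 3 PTPRG probe sets passed an adjusted p of 0.05 for miR-376a*G against control and 1569323_at did not, beside 25.8% of all 32768 probe sets. None of the 4 passed for miR-376a*A against control, where 21.3% of all passed. Between the forms 227126_at and 244574_at passed, beside 18.1% of all. The mean over the 4 probe sets gave -0.72 for miR-376a*G minus control, a smaller difference than the brightest one.

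**Figure D3:**
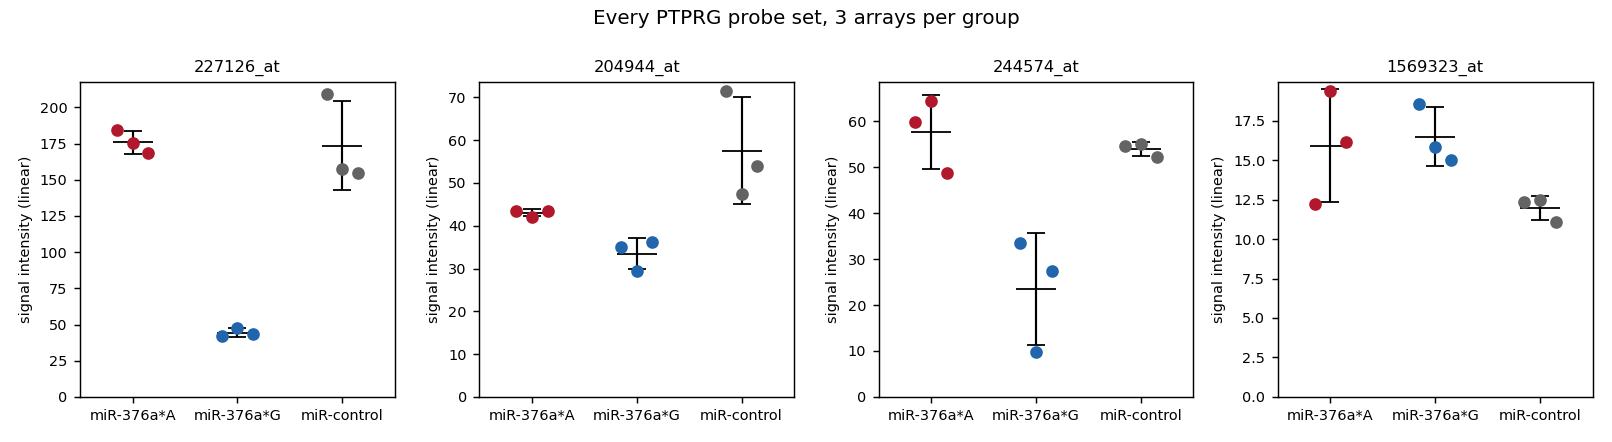
Linear signal intensity (y axis) of the 4 PTPRG probe sets, with 1 point per array and bars for mean ± SD of 3 arrays per group (x axis). The miR-376a*G arrays are the lowest in 227126_at, 204944_at and 244574_at, and lie at 15.02 to 18.6 in the dim 1569323_at, above the control arrays.

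SDC3 showed no group that stood apart. Its brighter probe set (1554864_a_at) had 23.8, 17.8 and 14.8 with miR-376a*A, 15.9, 21.3 and 19.2 with miR-376a*G, and 19.6, 22.5 and 19.2 with the control. The groups overlapped, with a difference of -0.07 ± 0.115 (log2, SE) for each form minus control and of -0.0046 ± 0.115 between the forms. These signals lie near the median signals of the arrays, 18.0 to 20.4, where the offset of 16 shrinks differences. A small change of SDC3 could therefore go unseen. The second SDC3 probe set (202898_at) lay between 1.76 and 6.33 on all arrays and was not fitted.

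LRP1 was somewhat lower with miR-376a*G than in the other groups. Its brightest probe set (200785_s_at) had 129, 124 and 112 with miR-376a*A, 100.6, 90.6 and 104 with miR-376a*G, and 108, 129 and 114 with the control. The miR-376a*G arrays lay below all others, and the miR-376a*A arrays overlapped the control. The difference was -0.21 ± 0.0885 for miR-376a*G minus control, 0.05 ± 0.0885 for miR-376a*A minus control and 0.26 ± 0.0885 for miR-376a*A minus miR-376a*G, none of which passed. Without control replicate 1 the miR-376a*G difference was -0.26 and passed. Without control replicate 1 or 2 the difference between the forms passed. The second LRP1 probe set (200784_s_at) had 51.9, 43.2 and 57.5 with miR-376a*A, 38.7, 35.7 and 35.3 with miR-376a*G, and 60.01, 57.4 and 57.3 with the control. Its miR-376a*G arrays were again the lowest, at -0.50 ± 0.0941 against the control and with a difference of 0.34 ± 0.0941 between the forms, and both passed when every kept probe set was tested, beside 25.8% (against control) and 18.1% (between the forms) of all probe sets. The remaining LRP1 probe sets (1555353_at at 4.31 to 13.8 and 1569042_at at 0.45 to 1.83) were not fitted, the first of them just below the limit with a mean of 4.67.

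**Figure D4:**
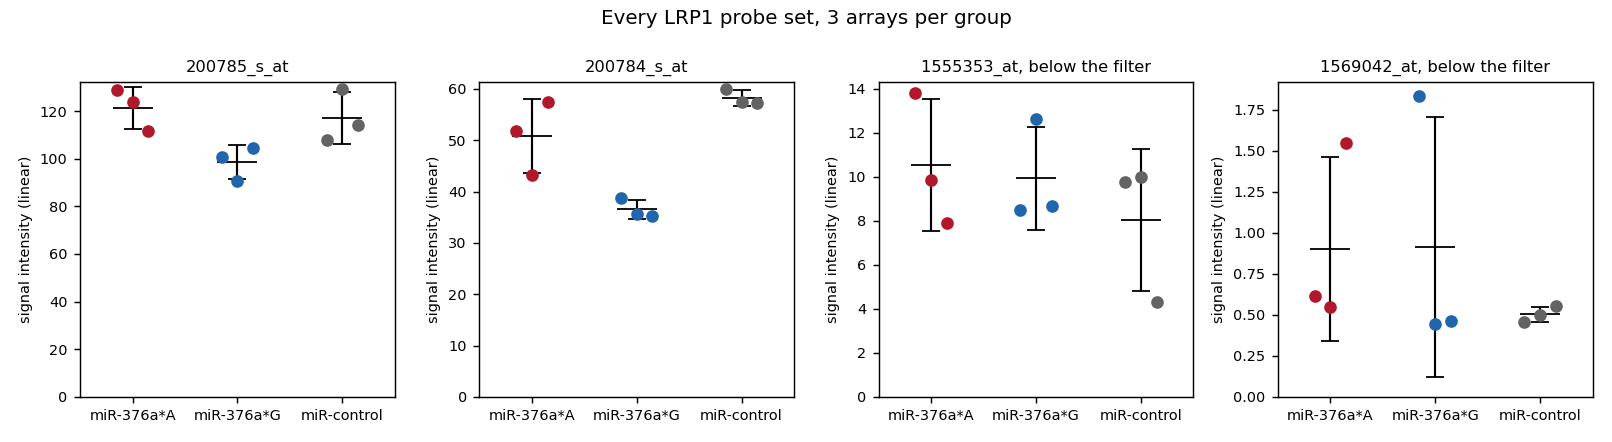
Linear signal intensity (y axis) of the 4 LRP1 probe sets, with 1 point per array and bars for mean ± SD of 3 arrays per group (x axis). In 200785_s_at and 200784_s_at the miR-376a*G arrays, at 90.6 to 104 and 35.3 to 38.7, lie below all others, while the dim probe sets overlap.

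Set side by side, the fitted genes did not share a pattern across the 3 groups. On the brightest probe set of each gene, PTN was low with the control only and PTPRG was low with miR-376a*G only. There LRP1 was slightly low with miR-376a*G, and SDC3, on a dim probe set, showed no difference beyond its spread. Of the 6 genes 4 were fitted on their brightest probe set, and MDK and PTPRZ1 were not. At an adjusted p of 0.05 over all 20068 features, 1 of the 4 passed for miR-376a*A against control (PTN, higher), where 20.8% of all features passed, 10.8% higher and 10.0% lower. For miR-376a*G against control 2 passed (PTN higher, PTPRG lower), beside 24.9% of all features, 11.8% higher and 13.1% lower. Between the forms 1 passed (PTPRG, higher with miR-376a*A), beside 18.3% of all, 10.4% higher and 7.90% lower. With every array centred on its median signal, the split of all calls was 1659 higher and 2353 lower for miR-376a*A against control, instead of 2164 and 2013. Between the forms that centring gave 1509 and 2217, instead of 2086 and 1585. The groups of arrays did not overlap for 1 gene with miR-376a*A against control (PTN), for 3 with miR-376a*G against control (PTN, PTPRG, LRP1) and for 2 between the forms (PTPRG, LRP1). Over all features the shares without overlap were 36.7% for miR-376a*A against control, 38.3% for miR-376a*G against control and 42.2% between the forms. Since the genes were chosen with these values known, their counts are not read against those shares.

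**Figure D5:**
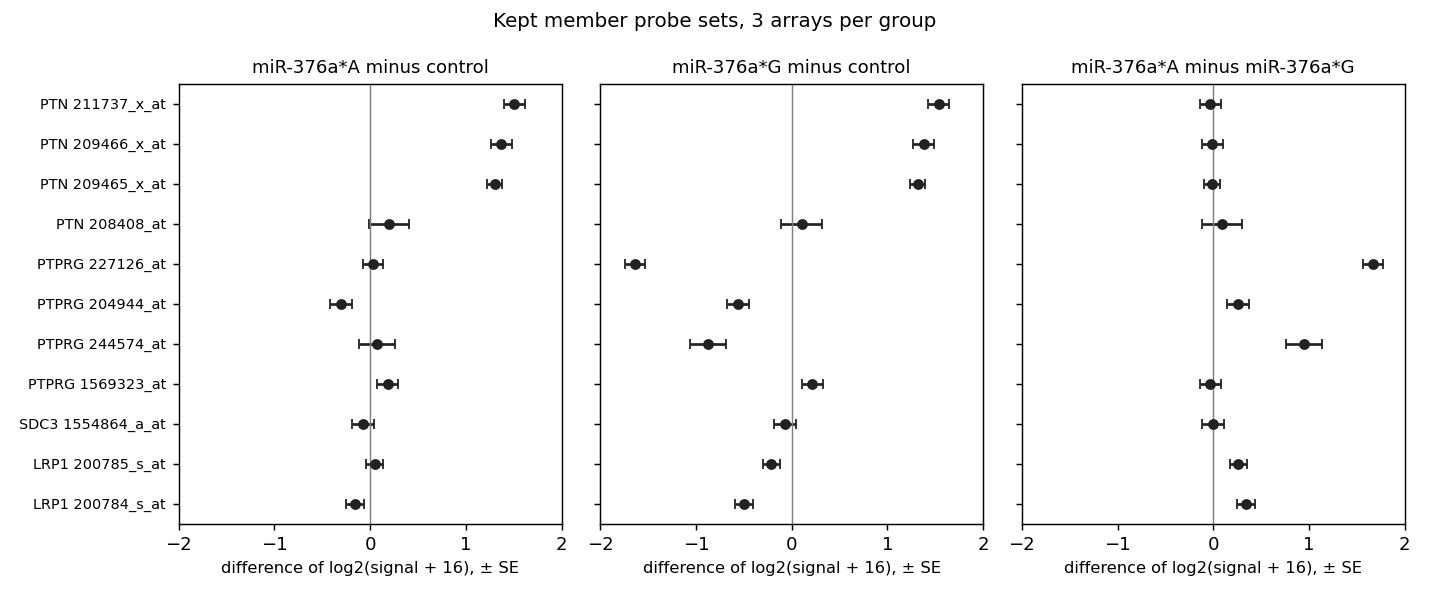
Difference in log2(signal + 16) with its SE (x axis, 3 panels for the 3 comparisons) of the 11 fitted probe sets (y axis). The 3 bright PTN probe sets lie between 1.30 and 1.54 for both forms minus control and near 0 between the forms, and PTPRG 227126_at lies at -1.64 for miR-376a*G minus control.

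Genes whose levels followed each fitted gene most closely over the 9 arrays were found by Pearson's r on log2 values among 13693 other genes. The 9 points fall into 3 groups, so a high r mostly restates which group was low. PTN was followed most closely by the heterochromatin protein gene CBX1 (r = 0.9965), the tropomyosin gene TPM1 (0.9950) and the mitochondrial ribosomal protein gene MRPS14 (0.9947). CBX1 had mean signals of 1011 with miR-376a*A, 1012 with miR-376a*G and 525 with the control. PTPRG was followed by the tyrosine kinase gene ABL1 (0.9950), the zinc transporter gene SLC30A6 (0.9947) and the ephrin gene EFNA5 (0.9941). EFNA5 had mean signals of 256 with miR-376a*A, 176 with miR-376a*G and 249 with the control. An r of at least 0.95 was reached by 126 genes for PTN and by 223 for PTPRG. For LRP1 only 3 genes reached it (TIGD5 at 0.9677, VSIR at 0.9507 and WDR45B at 0.9506), and for SDC3 none did, with DTWD2 (0.9114), LRRK1 (0.8862) and ALDH1B1 (0.8858) closest.

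Other receptors and partners of pleiotrophin and midkine were counted from a list of 21 genes, 19 of which were fitted. With miR-376a*A 2 rose and 2 fell against the control, which is 21.1% beside 20.8% of all features, and the list's median was 0.07 (log2) beside 0.04 over all features. With miR-376a*G 1 rose and 5 fell, which is 31.6% beside 24.9%, with a median of -0.12 beside -0.0038. Between the forms 7 were higher and 2 lower with miR-376a*A, which is 47.4% beside 18.3%, with a median of 0.17 beside 0.03. The lists below are set beside the same 3 shares and medians of all features. ITGB3, the partner of ITGAV in an integrin that binds pleiotrophin, fell 2.96-fold with miR-376a*G and 1.47-fold with miR-376a*A, each against control. The fall with miR-376a*A passed on the brightest probe set but not for the mean of probe sets. ITGB3 was 2.01-fold higher with miR-376a*A than with miR-376a*G. Its mean signals were 252 with miR-376a*A, 118 with miR-376a*G and 382 with the control. Of 6 other ITGB3 probe sets 3 passed with miR-376a*G, all 6 lying between -1.08 and -0.11 (log2), and the mean of probe sets gave -0.67 instead of -1.57 against control and 0.48 instead of 1.01 between the forms. ITGB1, a common integrin beta subunit, fell 1.28-fold with miR-376a*G (limma adjusted p = 0.000701), at -0.36 (log2), and the mean of its probe sets gave -0.64. Syndecan-1 (SDC1) rose 1.27-fold with miR-376a*A (adjusted p = 0.0024), fell 1.27-fold with miR-376a*G (adjusted p = 0.00194) and was 1.62-fold higher with it than with miR-376a*G (adjusted p = 9.97e-06). Syndecan-4 (SDC4) fell 1.35-fold with miR-376a*A (adjusted p = 0.000261). The fall of ITGB3 with miR-376a*G was known from earlier results of these arrays. No p-value is therefore given for that gene, and its passes are descriptions.

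Few cell-surface ligands of the receptor phosphatases gave enough signal to be fitted. Of 11 listed surface ligands such as the contactins 3 were fitted. Of these 1 (TNC) rose with miR-376a*A and was higher with it than with miR-376a*G, which is 33.3% each, beside 20.8% and 18.3% of all features. These calls held under 8 and 14 of the 20 alternatives to the processing, and its 2 other probe sets passed in the same direction. With miR-376a*G against control 0 passed limma's adjusted threshold, beside 24.9% of all features, and 0 had an unadjusted p under 0.05. The medians of these 3 genes were 0.16 with miR-376a*A, -0.10 with miR-376a*G and 0.20 between the forms. With miR-376a*G the 2 other TNC probe sets gave 0.08 and 0.25 (log2) against control, and 1 of them passed as higher. All 5 listed contactin genes were below the limit for fitting. Of 9 fitted PTPRZ1 substrates and scaffold partners 1 rose with miR-376a*A, 1 fell with miR-376a*G and 3 were higher with miR-376a*A than with miR-376a*G. These are 11.1%, 11.1% and 33.3% of the 9, beside 20.8%, 24.9% and 18.3% of all features, and the medians were 0.02, -0.12 and 0.18. The 3 between the forms were PXN, DLG4 and CTNNB1, whose calls held under 19, 18 and 8 of the 20 alternatives to the processing. The rise with miR-376a*A was that of PXN, whose other probe set gave -0.35 (log2). ARHGAP35, a GTPase-activating protein that PTPRZ1 dephosphorylates, fell 1.24-fold with miR-376a*G (limma adjusted p = 0.0078). Among other receptor tyrosine phosphatases 12 of 18 were fitted, and 2 rose and 2 fell with miR-376a*A, 2 rose and 4 fell with miR-376a*G, and 2 were higher and 2 lower with miR-376a*A than with miR-376a*G. Their shares were 33.3%, 50.0% and 33.3%, again beside 20.8%, 24.9% and 18.3%, with medians of -0.10, -0.11 and 0.12. PTPRE fell 2.09-fold (adjusted p = 1.63e-05) and PTPRD 1.75-fold (adjusted p = 0.000174) with miR-376a*G, while PTPRR rose 1.82-fold (adjusted p = 1.91e-05). PTPRD also fell with miR-376a*A, by 1.55-fold (adjusted p = 0.00135). Of its 2 other probe sets 0 passed with miR-376a*A, at -0.38 and -0.20 (log2), and 1 passed with miR-376a*G, and an offset of 64 gave -0.39 instead of -0.63 with miR-376a*A and -0.49 instead of -0.81 with miR-376a*G. The mean of PTPRD probe sets gave -0.40 with miR-376a*A. The second PTPRE probe set gave -0.21 with miR-376a*G and did not pass, and the mean of both gave -0.64 instead of -1.07. PTPRN2 rose with both forms, 1.42-fold with miR-376a*A (adjusted p = 0.0011) and 1.46-fold with miR-376a*G (adjusted p = 0.000535).

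Among 15 fitted LRP1 adaptors, chaperones and ligands 2 rose and 1 fell with miR-376a*A, 3 rose and 3 fell with miR-376a*G, and 1 was higher and 1 lower with miR-376a*A than with miR-376a*G. These are 20.0%, 40% and 13.3% of the 15, beside 20.8%, 24.9% and 18.3% of all features, with medians of 0.02, -0.03 and 0.0066. GULP1, an adaptor that binds the LRP1 tail, rose 1.84-fold with miR-376a*A (limma adjusted p = 7.8e-06) and 1.38-fold with miR-376a*G (adjusted p = 0.000983), although 1 of its 3 other probe sets went the other way. The mean of GULP1 probe sets gave 0.53 (log2) instead of 0.88 with miR-376a*A. DAB2, an endocytic adaptor, fell 1.49-fold with miR-376a*A (adjusted p = 0.00601) and 1.39-fold with miR-376a*G (adjusted p = 0.0135). PLAUR, the urokinase receptor that LRP1 helps to clear, rose 1.32-fold with miR-376a*G (adjusted p = 0.0013).

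Heparan and chondroitin sulfate chains bind pleiotrophin and midkine, and in each comparison most genes of the enzymes that build or edit them did not pass. Of 15 fitted heparan sulfate genes 1 rose and 3 fell with miR-376a*A, 2 rose and 3 fell with miR-376a*G, and 2 were higher and 4 lower with miR-376a*A than with miR-376a*G. These are 26.7%, 33.3% and 40% of the 15, beside 20.8%, 24.9% and 18.3% of all features, with medians of -0.04, -0.07 and -0.07. The 2 that rose with miR-376a*G were NDST1 and HPSE, the latter an editing enzyme. The other HPSE probe set gave 0.0086 (log2) with miR-376a*G and did not pass. XYLT1, which starts the chains, fell 1.42-fold with miR-376a*G (limma adjusted p = 0.000208), and the chain polymerase gene EXT1 fell 1.31-fold (adjusted p = 0.00347). B3GAT3, which completes the linker to the core protein, fell 1.93-fold with miR-376a*A (adjusted p = 0.000102) and 1.35-fold with miR-376a*G (adjusted p = 0.0167), and its second probe set passed as lower in both. NDST1, an N-deacetylase and N-sulfotransferase, rose 2.19-fold with miR-376a*A (adjusted p = 1.85e-05) and 1.97-fold with miR-376a*G (adjusted p = 4.99e-05) on 1 probe set, while 2 others gave -0.51 and -0.49 (log2) with miR-376a*G and passed as lower. The mean of NDST1 probe sets gave 0.33 instead of 1.13 with miR-376a*A and -0.0056 instead of 0.98 with miR-376a*G. XYLT1 and B3GAT3 were listed under heparan sulfate only, so the chondroitin sulfate counts that follow leave them out. Of 12 fitted chondroitin sulfate genes 3 rose and 1 fell with miR-376a*A, 1 rose and 1 fell with miR-376a*G, and 3 were higher and 1 lower with miR-376a*A than with miR-376a*G. These are 33.3%, 16.7% and 33.3% of the 12, beside the same shares of all features, with medians of 0.18, -0.05 and 0.14. CSGALNACT2, which starts chondroitin chains, fell 1.89-fold with miR-376a*A (adjusted p = 9.49e-05), and the sulfotransferase gene CHST3 rose 1.46-fold (adjusted p = 0.00129). Over all 85 fitted partner and pathway genes 12 rose and 9 fell with miR-376a*A, 9 rose and 17 fell with miR-376a*G, and 19 were higher and 10 lower with miR-376a*A than with miR-376a*G, that is 24.7%, 30.6% and 34.1% of them, beside 20.8%, 24.9% and 18.3% of all features. Their medians were 0.03, -0.08 and 0.13, beside 0.04, -0.0038 and 0.03. The lists were chosen with earlier results known, and no test set them against other genes.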

How the data were processed

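One Affymetrix array was run per U87 sample. The deposited values are linear signal intensities per probe set, which the authors had brought to a common trimmed mean, so an equal shift of every transcript would not show. GCOS 1.4.0.036 appears in the submitters' processing notes without its role. How the signal was computed and to what target it was scaled is not given in the sources used here. The members and gene lists were chosen with earlier results of these data known.

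After 62 array controls were left out, log2(signal + 16) was used without further scaling. Probe sets at or above the 40th percentile of mean log2 (32768) were kept. The brightest probe set on average stood for a gene. Those with several symbols (1801 on the array) or none (11721) entered singly, giving 20068 features. Symbols came from the platform annotation, and a check by Entrez identifier against RefSeq (GRCh38.p14) changed 0. Of 112 list genes 106 were on the array and 85 were fitted.

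All 9 arrays entered a single two-sided limma fit (limma 3.58.1, R 4.3.3, eBayes with a mean-variance trend), with Benjamini-Hochberg adjustment over all features and a threshold of 0.05. A second fit tested every kept probe set. Only the first was run on simulated data with known changes before use. There 200 of 20068 features were changed, with normal noise at each feature's own spread. Of these, 67 to 71% of 1.5-fold changes and 95 to 99% of 2-fold changes passed, over the 3 comparisons. Many more features passed on the real arrays, so these shares need not hold there. For each list and comparison, up to 3 genes of smallest p were eligible to be named, among those that passed without overlap of the groups. The text names a part of these, chosen after the alternatives were known, mostly genes whose calls held under all of them. The calls of PTPRN2, B3GAT3 and HPSE with miR-376a*G lie outside this rule and were not followed under the alternatives. Alternatives covered scaling, offset, filter, probe set rule, variance trend, arrays in the fit, a replicate block and removal of each array. Replicates are labelled as biological, and nothing says how the cultures were separated. Python 3.11.15, pandas 2.3.3, numpy 2.4.6 and matplotlib 3.10.9 were used for tables and figures.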

Additional observations from a re-analysis of the deposited data

How the results depend on the processing

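Of the 20 alternatives 9 left out an array, and for the 6 genes, chosen with these differences known, the ranges below are descriptions. The PTN difference ranged from 1.09 to 1.63 (log2) for miR-376a*A and from 1.08 to 1.66 for miR-376a*G. The PTPRG difference ranged from -1.93 to -0.72 for miR-376a*G minus control and from 0.71 to 1.96 between the forms. The small values came from averaging all probe sets of the gene, and for PTPRG the large ones from an offset of 1. LRP1 passed between the forms under 5 alternatives and with miR-376a*G against control under 2, so 2 of the 6 genes passed between the forms, instead of 1, with a filter at the 60th percentile, with the mean of probe sets, with only the 2 compared groups in the fit, and without control replicate 1 or 2. With arrays left out, 1 gene passed for miR-376a*A against control, 2 to 3 for miR-376a*G against control and 1 to 2 between the forms. Without control replicate 1 more features of any kind passed between the forms too, 5233 of 20095 instead of 3671 of 20068.

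With every probe set tested, 6988 passed for miR-376a*A against control, 8454 for miR-376a*G against control and 5942 between the forms, since more features were tested. With arrays left out, all features passing numbered 2841 to 4686 for miR-376a*A, 3477 to 5414 for miR-376a*G and 2340 to 5233 between the forms, the lowest of the last without miR-376a*G replicate 2. Partner and pathway genes passing numbered 19 to 29, 22 to 29 and 22 to 38 in the same order. With the mean of probe sets 2 gene differences reversed, NDST1 for miR-376a*G minus control at -0.0056 (adjusted p = 0.969) and PXN for miR-376a*A minus control at -0.0247 (adjusted p = 0.867), as their probe sets differ in sign. The alternatives were followed for 53 calls of partner and pathway genes, those eligible to be named with those added for SDC1 and NRP1. Of these 41 held under every alternative and 12 were lost under at least 1 of them. Weaker calls of the lists were not followed in this way.

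Deviations of same-numbered arrays correlated at -0.11 to 0.071 and those of other arrays at -0.125 to 0.142. Correlations this weak cannot settle whether the replicate numbers paired the arrays. Same-numbered arrays of miR-376a*A and control gave 0.071, 0.069 and 0.04, and those of miR-376a*G and control -0.11, 0.008 and -0.046. Those of the 2 forms gave -0.052, 0.013 and 0.03. A fit with a replicate block gave 3840, 4714 and 3325 features for miR-376a*A against control, miR-376a*G against control and between the forms. It gave 1, 2 and 1 of the 6 genes and 21, 27 and 26 partner and pathway genes. The 3 arrays of each group limit the precision, and MDK, PTPRZ1 and the dim probe sets, near background, carry no reading of a difference.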

Other observations

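Syndecan-1 (SDC1), a heparan sulfate proteoglycan that binds midkine and pleiotrophin, moved in opposite directions with the 2 forms of miR-376a*. It was singled out after its values were seen. Its mean signal was 586 ± 19.5 with miR-376a*A, 356 ± 18.5 with miR-376a*G and 457 ± 16.3 with the control (SD, n = 3 each), and no 2 groups overlapped. The difference from control was 0.35 ± 0.0652 (log2, SE) with miR-376a*A (limma adjusted p = 0.0024) and -0.35 ± 0.0652 with miR-376a*G (adjusted p = 0.00194), and both calls held under all 20 alternatives. These comparisons share the control arrays. The second SDC1 probe set gave 0.23 with miR-376a*A and -0.43 with miR-376a*G, and both passed.

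NRP1 encodes neuropilin-1, a co-receptor that binds pleiotrophin, and it was also singled out after its values were seen. Its mean signal was 819 ± 16.2 with miR-376a*A, 566 ± 45.0 with miR-376a*G and 715 ± 109 with the control (SD, n = 3 each). Between the forms it was 0.52 higher with miR-376a*A (log2, limma adjusted p = 0.00227), a call that held under all 20 alternatives, with a lowest value of 0.29 for the mean of probe sets. Of the 3 other NRP1 probe sets 1 passed, and they ran from 0.0096 to 0.48. Against control it was 0.20 higher with miR-376a*A, which did not pass (adjusted p = 0.159) but did without control replicate 1 (adjusted p = 0.0132). With miR-376a*G it fell by 0.32 (adjusted p = 0.0293) with overlapping arrays, and 8 of the 20 alternatives lost that call, at an adjusted p of 0.0527 to 0.111, among them the fits without miR-376a*G replicate 1 or 2 and without control replicate 1 or 3.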
